A study of Rattus norvegicus with 4 samples.

Results

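Neutrophils were picked out of single-cell libraries of rat abdominal midline fascia by their transcripts. The rule kept cells with at least 50 UMIs of S100a8 and S100a9 together per 10000 UMIs of the cell, where a UMI (unique molecular identifier) stands for 1 captured RNA molecule. It left out cells with 10 or more per 10000 of the macrophage genes C1qa, C1qb and C1qc, with any UMI of the T cell genes Cd3d, Cd3e and Cd3g, or with 10 or more per 10000 of the collagen genes Col1a1 and Col1a2. It kept 656 of the 34904 cells that passed quality filters (1.88%), namely 240 and 116 cells of the 2 acupuncture libraries and 239 and 61 cells of the 2 dysentery libraries.

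Every rat had dysentery induced with Salmonella. Rats of the acupuncture group were then needled, and the dysentery group stands for the same disease without that treatment. The tissue is labelled subcutaneous fascia and was digested with collagenase, elastase and DNase, after which red blood cells and dead cells were removed. Strain, sex and age are not given in the sources used here. The groups follow the library titles, whereas the treatment field of all 4 libraries names the opposite group, so every sign below would turn if that field were right. Nothing in the labels says that the libraries came from separate animals, and p-values therefore measure only the spread between these libraries, which may be technical.

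Neutrophils are short-lived phagocytes made in the bone marrow under G-CSF and called into tissue by chemokines that bind Cxcr2. They load their granules in order while they mature, so transcripts of primary granules (Mpo, Elane), secondary granules (Ltf, Camp, Lcn2, Ngp, Mmp8) and gelatinase granules (Mmp9) mark successive stages. In inflamed tissue they make cytokines such as Il1b and chemokines such as Cxcl2 under NF-kB.

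Over all cells past the quality filters, median depth was 7634 and 9377 UMIs in the acupuncture libraries and 6786 and 7084 in the dysentery libraries. The share of deposited cells over the mitochondrial limit was 7.00% and 7.17% in acupuncture and 16.01% and 5.11% in dysentery, so dysentery replicate 1 stood apart. Any 2 libraries shared 19 to 32 cell barcodes, and no such barcode was that of a neutrophil in both. Neutrophils held less RNA than other cells, with median depths of 3423 and 3940 UMIs in acupuncture and 3236 and 3441 UMIs in dysentery, and 868, 1045, 805 and 795 genes in the same order. S100a8 and S100a9, which chose the cells, took a median of 30.6% and 23.4% of UMIs in acupuncture cells and 32.6% and 34.9% in dysentery cells.

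The label was checked against markers that the rule did not use. Cxcr2, the chemokine receptor of neutrophils, had a UMI in 80.3% of the 656 cells, against 1.49% of all other cells. Csf3r, the G-CSF receptor, had one in 74.5% against 2.10%. Either of them was seen in 608 cells, or 92.7%. G0s2 was seen in 82.3% of neutrophils against 9.42% of other cells, Retnlg in 67.7% against 1.06% and Trem1 in 67.1% against 9.67%. Some other neutrophil markers were rare. Fpr1 was seen in 2.44% of neutrophils against 0.0234% of other cells, and Fpr2 in 7.47% against 0.499%. Hdc went the other way, with no UMI in any neutrophil and one in 0.645% of other cells. Col3a1 and Dcn, fibroblast genes, were seen in 54.9% and 47.7% of neutrophils, but also in 59.3% and 51.7% of T cells (cells with a Cd3 UMI). The part of free RNA in these shares was not tested.

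The genes that stood out most in level, beside the genes of the rule, were Retnlg, Pglyrp1, Ifitm6, G0s2, Nos2, Hp, Hcar2, Prok2, Mcemp1, Serpinb1a, Cxcr2, Ifit1bl and Il1b. Their order goes by the lowest ratio over all other cells among the 4 libraries, with 10 CPM added to both sides. Retnlg, which encodes a resistin-like protein of rodent neutrophils, had a ratio of at least 140-fold in every library. Nos2, the inducible nitric oxide synthase, stood at 21.0 and 22.4 UMIs per 10000 in acupuncture neutrophils and 14.5 and 16.5 in dysentery neutrophils, against at most 0.182 in the other cells of any library. These values describe the cells and are not a test, since the cells were chosen by their transcripts.

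Cells close to the S100 limit looked different. The 26 neutrophils with 50 to 100 per 10000 had a Csf1r UMI (the receptor of monocytes and macrophages) in 61.5% and a Cxcr2 UMI in 42.3%. Just outside, 34 cells with 25 to 50 per 10000 had Csf1r in 55.9% and Cxcr2 in 38.2%. Csf1r was rarer at higher S100 levels, being seen in 45% of the 80 cells at 50 to 500, in 9.6% of the 125 cells at 500 to 2000 and in 4.21% of the 451 cells above 2000 per 10000. In all, 70 of the 656 cells had a UMI of Csf1r or of the dendritic cell receptor Flt3, and 18 were marked as likely doublets.

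Few cells held Ltf, Mpo or Elane. Ltf (lactoferrin) had no UMI in any library, Mpo (myeloperoxidase) had a UMI in 1 cell, and Elane (neutrophil elastase) had one in 9.15%. Mki67, made by dividing cells, was seen in 0.457% of cells. Camp (cathelicidin) was seen in 25.2%, Lcn2 (lipocalin 2, which binds bacterial siderophores) in 12.8%, Mmp8 (neutrophil collagenase) in 31.6% and Mmp9 (gelatinase B) in 28.2%. No granule gene of this kind was seen in over 0.5% of other cells except Lcn2, at 3.13%.

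Neutrophils with a UMI of Mmp8 or Camp differed from those with neither, within each library. There were 94 and 47 such cells in acupuncture and 95 and 31 in dysentery, against 146, 69, 144 and 30 cells without. Retnlg stood at 51.2 and 46.1 UMIs per 10000 in the acupuncture cells with granule transcripts and 56.7 and 65.0 in the dysentery cells with them. In the cells without, it was 12.996 and 13.015 in the acupuncture libraries and 19.2 and 20.8 in the dysentery libraries. The ranges did not overlap, and the mean was 3.32 times as high with granule transcripts. Lcn2 was 4.22 times, Mmp9 3.10 times and Cxcr2 1.34 times as high, each higher in all 4 libraries. Among cells at 500 per 10000 or more, where Csf1r was rare, Cxcr2 was 1.15 times as high and higher in 2 of 4 libraries.

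Nfkbia, Il1b, Cxcl2, Csf3r and other genes were lower in the cells with granule transcripts. Nfkbia, which encodes the NF-kB inhibitor IkBa and is itself induced by NF-kB, had 28.5 and 36.1 UMIs per 10000 in the acupuncture cells with granule transcripts and 36.5 and 39.5 in the dysentery cells with them. Cells with neither transcript had 64.3 and 69.1 in acupuncture and 65.5 and 91.6 in dysentery. The ratio of means was 0.48 for Nfkbia, 0.60 for Il1b, 0.67 for Cxcl2, 0.49 for the stress factor Atf3, 0.37 for the chemokine Ccl3, 0.40 for Cxcr4 (a receptor that marks aged neutrophils), 0.38 for Vegfa and 0.26 for the adhesion molecule Icam1. Each of these 8 genes was lower in all 4 libraries. Csf3r (0.72) and Cd14 (0.32) were also lower in all 4 libraries. At 500 per 10000 or more, Csf3r (0.62) stayed lower in all 4, whereas Cd14 (2.51) was higher in 2. Tnf (0.41), Ptgs2 (0.56), Cxcl3 (0.16) and Il1rn (0.79) were each higher in 1 library, and the chemokine Ccl4 had a ratio of 1.21 and was higher in 2. Neutrophils with granule transcripts were also deeper, with medians of 4434 and 5240 UMIs in acupuncture and 4321 and 4327 in dysentery, against 2880, 3378, 2638 and 3164 UMIs in the cells without. Taking S100a8 and S100a9 out of the totals left the ratio at 4.10 for Retnlg, 0.60 for Nfkbia and 0.75 for Il1b, with the same sign in all 4 libraries. Among cells at 500 per 10000 or more the ratios were 2.46, 0.44 and 0.51, also with the same sign in all 4 libraries.

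Cxcr4 split the cells less sharply. Cells with a Cxcr4 UMI had less Nfkbia in all 4 libraries, at a mean of 46.0 UMIs per 10000 with Cxcr4 against 58.5 without it, and more Atf3 (14.5 against 10.9). Without S100a8 and S100a9 in the totals, Nfkbia stayed lower in 4 libraries, whereas Atf3 was higher in 1 of the 4. Among cells at 500 per 10000 or more, Nfkbia was lower (ratio 0.79) and Atf3 higher (1.24) in all 4 libraries. Atf3 stayed higher in all 4 there without S100a8 and S100a9 in the totals (1.22).

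The first comparison asks whether neutrophils were more or less frequent with acupuncture. They made up 2.91% and 1.25% of cells in the acupuncture libraries and 3.59% and 0.568% in the dysentery libraries. The 95% Clopper-Pearson intervals, which cover counting error only, ran from 2.56% to 3.30% and from 1.04% to 1.502% in acupuncture, and from 3.15% to 4.06% and from 0.435% to 0.729% in dysentery. The 2 acupuncture libraries thus differed 2.32-fold from each other and the 2 dysentery libraries 6.31-fold, both beyond counting error. The means were 2.08% ± 1.17 in acupuncture and 2.08% ± 2.13 in dysentery (SD, n = 2 each), a difference of 0.00483 points (exact two-sided permutation test, p = 1; the smallest p that 2 against 2 allows is 0.333). Without dysentery replicate 1 the difference was 1.51 points and without dysentery replicate 2 it was -1.504 points, so no direction could be read.

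**Figure D1:**
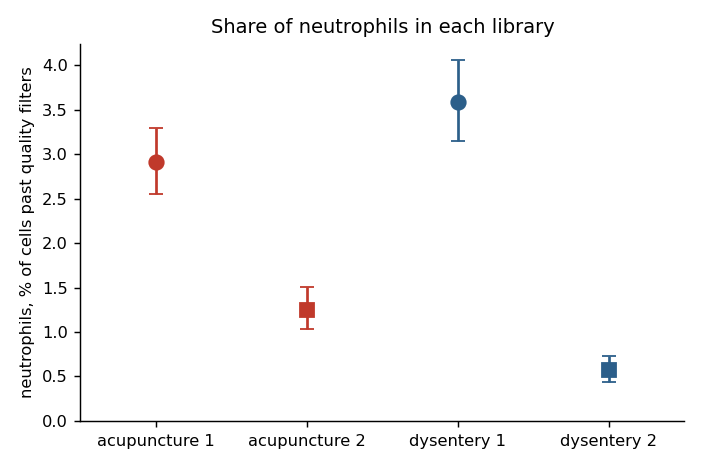
Neutrophils as a percent of cells past quality filters in each library (y axis), with 95% Clopper-Pearson intervals for counting error. The acupuncture libraries, at 2.91% and 1.25%, lie between the dysentery libraries at 3.59% and 0.568%.

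To compare expression, UMIs were summed over the neutrophils of each library and tested with edgeR's quasi-likelihood test. Of 4458 genes tested, 8 were higher and 11 lower with acupuncture at an adjusted p under 0.05. These calls are 0.179% and 0.247% of the genes tested (0.426% in both directions), and 313 genes had an unadjusted p under 0.05. Levels below are TMM-scaled CPM, which are counts normalised for library size, and changes are log2, acupuncture minus dysentery, with the standard error of the fit.

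Lcn2, Camp and Ngp, genes of the secondary granules, were lower with acupuncture. Lcn2 had 56.6 and 69.7 CPM in acupuncture neutrophils, against 472 and 312 in dysentery neutrophils. The groups did not overlap, and the change was -2.67 ± 0.32 (adjusted p = 0.000199). Cells with a Lcn2 UMI numbered 18 of 240 and 10 of 116 in acupuncture and 41 of 239 and 15 of 61 in dysentery, and 2 cells of dysentery replicate 1 held much of its signal, the higher of them with 217 of 456 UMIs. Camp had 123 and 109 CPM in acupuncture and 290 and 321 in dysentery (-1.38 ± 0.29, adjusted p = 0.0307), a call that was lost without any 1 of the 4 libraries. Ngp, a cathelin-related granule protein, had 3.08 and 1.79 in acupuncture and 236 and 43.1 in dysentery (-5.87 ± 0.67, adjusted p = 0.000199).

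For Camp and Ngp a single cell mattered. One cell of dysentery replicate 1 held 210 of the 228 Ngp UMIs of its library, and one cell held 149 of the 280 Camp UMIs. With the highest cell of each library left out for every gene, Lcn2 still passed (-2.42, adjusted p = 0.00853), Camp did not (-0.82, adjusted p = 0.888) and Ngp was too low to be tested. Of the 14 secondary granule genes tested, these 3 were lower, none was higher, and 2 had a positive change. The median change was -0.65, beside -0.01 over all genes tested, of which 0.247% were lower and 0.179% higher. Mmp8 (153 and 213 CPM in acupuncture, 148 and 197 in dysentery) and Chi3l1 (1352 and 1610 in acupuncture, 1167 and 1851 in dysentery) overlapped between the groups.

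**Figure D2:**
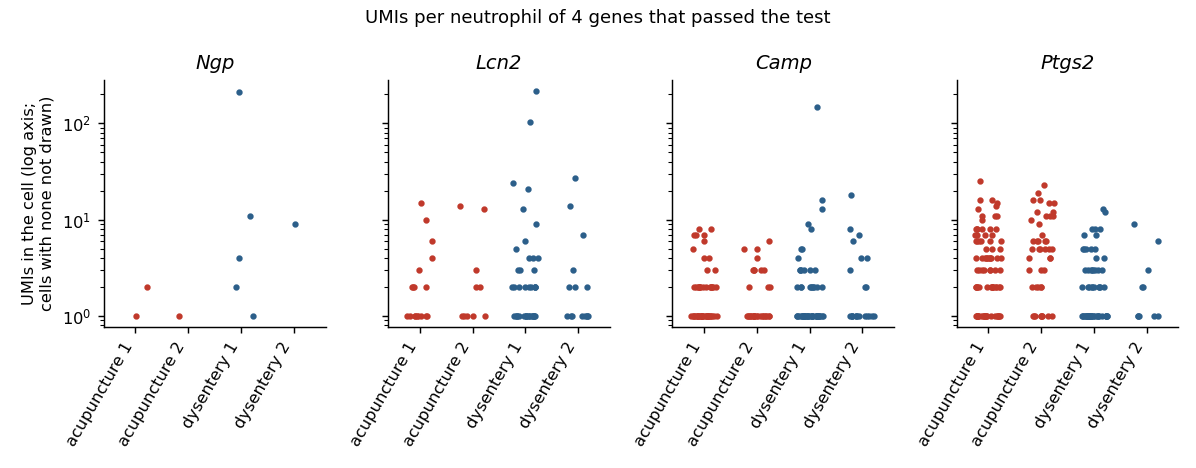
UMIs per neutrophil for Ngp, Lcn2, Camp and Ptgs2 in each library, on a log axis; each point is a cell with at least 1 UMI. A cell of dysentery replicate 1 with 210 Ngp UMIs and one with 149 Camp UMIs stand far above the others, whereas Ptgs2 is spread over 85, 45, 61 and 10 cells of the libraries from left to right.

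Ptgs2 was higher with acupuncture, and its UMIs were spread over many neutrophils. Ptgs2 encodes cyclooxygenase 2, the inducible enzyme of prostaglandin synthesis, and is the gene the study's design names in telocytes, a stromal cell. It had 400 and 513 CPM in acupuncture neutrophils, against 175 and 129 in dysentery neutrophils (1.54 ± 0.31, adjusted p = 0.0265). Both acupuncture libraries lay above both dysentery libraries. Its UMIs came from 85 and 45 cells in acupuncture and 61 and 10 in dysentery, and cells with Csf1r or Flt3 held 4.11%, 14.3%, 8.88% and 0% of them. T cells had at most 0.0891 Ptgs2 UMIs per 10000 in any library, against 3.94 and 5.33 in acupuncture neutrophils and 1.73 and 1.14 in dysentery neutrophils. All other cells together moved the same way, at 1.77 and 2.86 in acupuncture and 0.205 and 0.563 in dysentery. The part of free RNA in the Ptgs2 difference was not tested. The call was lost without acupuncture replicate 2 (1.38, adjusted p = 0.200), dysentery replicate 1 (1.77, adjusted p = 0.224) or dysentery replicate 2 (1.41, adjusted p = 0.109). It was also lost without likely doublets (1.49, adjusted p = 0.109) and without the highest cell of each library (1.66, adjusted p = 0.189).

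The chemokine genes Cxcl1, Ccl2 and Ccl7 were also higher. Cxcl1, a ligand of Cxcr2, had 509 and 416 CPM in acupuncture and 104 and 134 in dysentery (2.00 ± 0.32, adjusted p = 0.00276). Ccl2, which draws monocytes, had 924 and 542 in acupuncture and 245 and 115 in dysentery (1.95 ± 0.37, adjusted p = 0.0169). Ccl7 had 40.1 and 69.7 in acupuncture and 1.04 and 14.4 in dysentery (3.82 ± 0.66, adjusted p = 0.00675).

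The cells behind these chemokines differed between libraries. One cell held 146 of the 233 Cxcl1 UMIs of acupuncture replicate 2, whereas in acupuncture replicate 1 the 495 Cxcl1 UMIs lay in 43 cells, with 104 in the highest one. Ccl2 was seen in 94 and 39 acupuncture cells and 49 and 6 dysentery cells. With each library's highest cell left out, the log2 change was 2.22 for Cxcl1 (adjusted p = 0.142) and 2.04 for Ccl2 (adjusted p = 0.430). Cells with a Csf1r or Flt3 UMI held 52.4% and 66.0% of the Ccl2 UMIs in acupuncture and 38.8% and 4.17% in dysentery. The same chemokines also moved in the other cells, where Ccl2 stood at 19.4 and 20.8 UMIs per 10000 in acupuncture and 2.35 and 4.53 in dysentery. In T cells Ccl2 stood at 1.31 and 1.84 in acupuncture and 0.554 and 0.625 in dysentery. The part of free RNA and of monocytes in these differences was not tested.

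Cd83, an activation marker that dendritic cells share, and the lamin gene Lmna rested on the Csf1r or Flt3 cells. Cd83 had 40 UMIs in each acupuncture library and 8 and 0 in the dysentery libraries (3.01 ± 0.54, adjusted p = 0.00890), and 35 and 39 of the acupuncture UMIs lay in such cells. Lmna had 212 and 241 CPM in acupuncture and 68.3 and 52.7 in dysentery (1.83 ± 0.30, adjusted p = 0.00394), with 66.0% and 87.4% of its acupuncture UMIs in such cells. When cells with Csf1r or Flt3 were left out of every library, no gene passed (0 genes in edgeR, with 310 at an unadjusted p under 0.05). Lcn2 was then at -2.74 (adjusted p = 0.0686) and Ptgs2 at 1.39 (adjusted p = 0.188). Ccl2 was at 1.14, Lmna at 1.16 and Ccl7 at 2.80, while Cd83 was too low to be tested. The 13 monocyte and macrophage markers outside the rule summed to 28.4 and 24.4 UMIs per 10000 in acupuncture neutrophils and 28.2 and 18.9 in dysentery neutrophils, with none at 0, against 233 to 310 in the other cells.

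The other named genes that were lower were Ifi27, C4b, Igfbp6 and Tnfsf13. Ifi27, an interferon-induced gene, had 36.0 and 39.3 CPM in acupuncture and 195 and 216 in dysentery (-2.44 ± 0.30, adjusted p = 0.000199). Neutrophils held it at 0.355 and 0.408 UMIs per 10000 in acupuncture and 1.93 and 1.90 in dysentery, and T cells at 0.299 and 0.722 in acupuncture and 3.61 and 2.90 in dysentery. C4b (complement C4, -1.92 ± 0.30, adjusted p = 0.00276) and the fibroblast gene Igfbp6 (-1.66 ± 0.36, adjusted p = 0.0420) moved the same way in T cells, with C4b at 0.582 and 0.417 in acupuncture T cells and 1.93 and 0.966 in dysentery T cells. The 10 fibroblast markers outside the rule, of which Cd34 was at 0, summed to 8.49 and 6.50 in acupuncture neutrophils and 12.9 and 7.72 in dysentery neutrophils. The part of free RNA in these differences was not tested. Tnfsf13 (the cytokine APRIL, -1.62 ± 0.33, adjusted p = 0.0287) had 78.6% to 85.9% of its UMIs in cells with Csf1r or Flt3. AABR07030771.1 was higher (1.99 ± 0.32, adjusted p = 0.00293), and AABR07030773.1, AABR07060872.1 and AABR07044388.2 were lower. Of loci with an identifier only, ENSRNOG00000051885 was higher (2.75 ± 0.34) and ENSRNOG00000067579 lower (-3.29 ± 0.61). Cells with Csf1r or Flt3 held 77.0% and 70.8% of ENSRNOG00000051885 UMIs in acupuncture. They held 97.8% of those of AABR07030773.1 in dysentery replicate 1, and 82.4% and 83.3% of those of ENSRNOG00000067579 in dysentery. In T cells ENSRNOG00000051885 stood at 26.1 and 29.3 UMIs per 10000 in acupuncture and 3.48 and 3.38 in dysentery. AABR07060872.1 stood at 64.8 and 193 in acupuncture T cells and 99.9 and 469 in dysentery T cells, against at most 1.31 in neutrophils.

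Without dysentery replicate 1, the dysentery group was 1 library of 61 cells, which was assumed to vary like the acupuncture libraries. Lcn2 (-2.36, adjusted p = 0.0391), Ifi27 and ENSRNOG00000051885 passed in that fit, and Ccl7 (1.82), Cxcl1 (1.74), Ccl2 (2.63), Lmna (2.05), Ptgs2 (1.77) and C4b (-1.60) did not. Ccl2 also lost its call without acupuncture replicate 1 (1.51, adjusted p = 0.0698) or dysentery replicate 2 (1.62, adjusted p = 0.153), Cd83 without dysentery replicate 2, and Igfbp6 and Tnfsf13 without acupuncture replicate 2 or dysentery replicate 2. No sign turned in any of these fits.

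**Figure D3:**
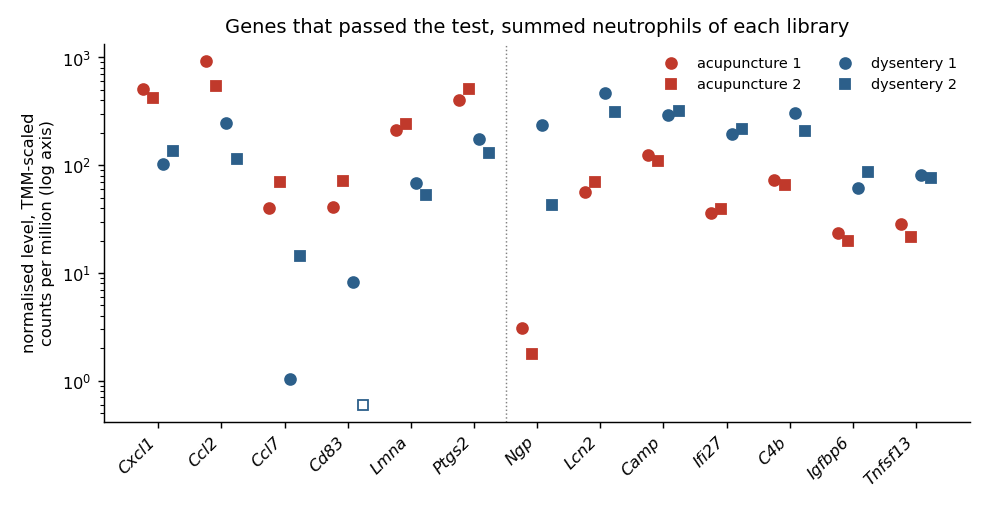
TMM-scaled CPM (log axis) of 13 genes that passed the test, in the summed neutrophils of each library. Genes left of the dotted line were higher and genes right of it lower with acupuncture; the open square marks Cd83 at 0 in dysentery replicate 2, drawn at the foot of the axis.

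Most maturity and activation genes did not pass. Csf3r had 450 and 433 CPM in acupuncture and 315 and 494 in dysentery (0.15 ± 0.31), and Cxcr2 had 652 and 803 in acupuncture and 426 and 705 in dysentery (0.38 ± 0.33). Il1b, which encodes interleukin 1 beta, had 9012 and 8646 in acupuncture and 4743 and 7700 in dysentery (0.51 ± 0.36, adjusted p = 0.875). Both acupuncture libraries lay above both dysentery libraries for Il1b, as they did for 848 genes (19%) of all genes tested. Cxcl2 behaved alike, at 10309 and 10242 in acupuncture and 6341 and 8956 in dysentery (0.43 ± 0.35). Tnf went the other way, with 32.9 and 46.5 in acupuncture and 82.8 and 139 in dysentery (-1.40 ± 0.33, adjusted p = 0.0860).

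Il1r2 (0.69), Cxcr4 (0.51), Ccl3 (1.14), Cxcl3 (1.82), Il1rn (0.43), Vegfa (0.69), Atf3 (0.40), Nr4a1 (0.25), Hif1a (0.08), Mmp8 (0.12) and Mmp9 (0.12) had positive log2 changes that did not pass. Retnlg (-0.60), Osm (-0.38), Icam1 (-0.29), Cd14 (-0.64), Nfkbia (-0.29), Nfkbiz (-0.12), Fos (-0.39), G0s2 (-0.19) and Trem1 (-0.28) had negative ones. Il1a, Il10, Tlr4, Mpo, Ltf and Mki67 were too low to be tested.

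Over all genes tested, 0.179% were higher and 0.247% lower. By group, 1 of 25 tested NF-kB response genes was higher (Cd83) with a median change of -0.07. Of the Cd83 UMIs in acupuncture, 87.5% and 97.5% lay in cells with Csf1r or Flt3. None of 25 immediate early genes passed (median -0.19), nor of 16 gelatinase granule and mature neutrophil genes (0.04), 21 pathogen sensing genes (0.15), 18 survival and death genes (0.18), 10 oxidative burst genes (0.03) or 29 ribosomal protein genes (-0.15). Of 17 cytokines and chemokines, 2 were higher (Cxcl1 and Ccl2; median 0.43), and of 13 genes of aged or tissue-residing neutrophils, 2 (Cd83 and Ptgs2; 0.51). Of 19 interferon response genes, 1 was lower (Ifi27; 0.18), and of 8 prostaglandin and leukotriene genes, 1 was higher (Ptgs2; 0.27). None passed among 11 heat shock (0.18), 17 hypoxia and glycolysis (0.11), 18 adhesion and migration (0.02), 13 glucocorticoid response (-0.01), 3 primary granule (0.28) and 3 cell cycle genes (-0.01), nor in any list of markers of other cells. On simulated sums of this size, the test recovered 88.9% of genes changed by 2 on the log2 scale and 17.0% of those changed by 1. The simulation gave every gene the same spread between libraries (dispersion 0.0405) and no single cell with many UMIs. In the data, genes vary more unevenly, so these shares may be too high.

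Shares of neutrophils with a UMI were compared after each cell was thinned to 1000 UMIs, which left out 3 and 1 shallower cells in acupuncture and 2 and 0 in dysentery. Ptgs2 was seen in 22.4% and 23.5% of acupuncture neutrophils and 14.3% and 6.56% of dysentery neutrophils, beside 0.221% of T cells at the same depth. Il1r2, the decoy receptor for interleukin 1, was seen in 45.6% and 45.2% in acupuncture and 24.9% and 32.8% in dysentery, beside 0.166% of T cells. For both genes the 2 acupuncture libraries lay above both dysentery libraries.

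Lcn2 lay below, at 2.11% and 5.22% in acupuncture and 8.44% and 8.20% in dysentery. The 3 genes that lay below in both acupuncture libraries, among 25 genes compared, were Lcn2, Il1a and Tnf, and 9 genes lay above. Each of these 12 had p = 0.333, the smallest that the exact permutation test allows here, and 0.694 after Benjamini-Hochberg adjustment over the 25 genes, so none passed. By summed level, 19% of all genes tested lay above and 17.5% below in both acupuncture libraries. After thinning, Il1a was seen in 2 and 1 acupuncture cells and 3 and 1 dysentery cells. Cxcl3 and Il10, among the 9 genes above, were seen in 4 cells or fewer of any library. Unthinned, Ptgs2 was seen in 35.4% and 38.8% of acupuncture neutrophils and 25.5% and 16.4% of dysentery neutrophils.

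Whether these changes were particular to neutrophils was tested against 2 other gated populations of the same libraries. These were macrophages with C1q transcripts (6231 cells) and monocytes with a Csf1r UMI, a UMI of Ccr2, Vcan or F13a1 and none of Flt3 (2249 cells), each with fewer than 50 UMIs of S100a8 and S100a9 per 10000. The change in neutrophils minus that in macrophages passed for 148 of 10051 genes (1.47%), 80 of them positive (0.796%) and 68 negative (0.677%). Minus the change in monocytes it passed for 104 of 9883 genes (1.05%), 12 of them positive (0.121%) and 92 negative (0.931%). On simulated sums this test recovered 58% of differences of 2 on the log2 scale and 0% of differences of 1. Only neutrophil and monocyte sums were simulated, again with the same spread for every gene. Recovery against macrophages was therefore not measured, and these shares may be too high.

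The acupuncture change of Cxcl2, Nfkbiz, Osm and Icam1 was lower in neutrophils than in both other populations, and that of Nfkbia was lower than in macrophages. Cxcl2, a chemokine that attracts neutrophils, stood at 102 and 106 UMIs per 10000 in acupuncture neutrophils and 62.8 and 78.8 in dysentery neutrophils. Macrophages had 31.9 and 58.1 in acupuncture and 7.30 and 3.49 in dysentery, and monocytes had 18.6 and 25.05 in acupuncture and 5.65 and 1.14 in dysentery. Neutrophils were thus high in both groups, whereas the other cells were high in the acupuncture libraries. The neutrophil change was smaller by 2.56 ± 0.55 than in macrophages (log2 difference -2.56, adjusted p = 0.000671) and differed by -2.48 ± 0.65 from that in monocytes (adjusted p = 0.0204).

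Nfkbiz, which encodes an atypical IkB protein that NF-kB induces, showed the same pattern, with differences of -2.27 ± 0.43 (adjusted p = 4.23e-05) and -1.92 ± 0.46 (adjusted p = 0.00773) from macrophages and monocytes. Osm, the cytokine oncostatin M, differed by -2.31 ± 0.49 (adjusted p = 0.000554) and -2.29 ± 0.54 (adjusted p = 0.00662), at 23.6 and 15.2 UMIs per 10000 in acupuncture neutrophils and 18.8 and 27.6 in dysentery neutrophils. Icam1 differed by -1.72 ± 0.44 (adjusted p = 0.00904) and -2.10 ± 0.44 (adjusted p = 0.00114). It had 34 and 42 UMIs in acupuncture neutrophils and 65 and 12 in dysentery neutrophils. Cells with Csf1r or Flt3 held 52.9% and 69.0% of these in acupuncture and 52.3% and 0% in dysentery. Nfkbia differed from macrophages (-1.90 ± 0.51, adjusted p = 0.0171), and its difference from monocytes did not pass (-1.42, adjusted p = 0.471).

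The calls for these differences varied with the libraries. Without acupuncture replicate 2 the difference from macrophages was -2.22 for Cxcl2 (adjusted p = 1.00), and without acupuncture replicate 1 it was -3.16 (adjusted p = 0.198). Without acupuncture replicate 2 the differences from macrophages were -2.33 for Nfkbiz (adjusted p = 0.0811), -1.53 for Osm, -2.07 for Icam1 (adjusted p = 0.107) and -1.80 for Nfkbia, and none passed. Osm also did not pass there without dysentery replicate 2 (-1.19), nor did Icam1 (-1.58) and Nfkbia (-2.26) without acupuncture replicate 1. Against monocytes, Cxcl2 passed in 7 of 13 alternatives. It did not under RLE scaling (-2.52, adjusted p = 0.0575), without likely doublets (-2.56, adjusted p = 0.0572), with a Csf3r or Cxcr2 UMI required (-2.49, adjusted p = 0.105), or without acupuncture replicate 1 (-2.78), acupuncture replicate 2 (-2.29) or dysentery replicate 2 (-1.24). The difference from monocytes for Osm passed in 9 of 13 and was -0.97 without dysentery replicate 2. Nfkbiz passed in 11, lost without acupuncture replicate 1 (-1.79) or 2 (-2.17), and Icam1 in 12, lost without acupuncture replicate 1 (-1.66). No sign turned in these fits. Fitted alone, Cxcl2 had a change of 3.18 ± 0.46 in macrophages (adjusted p = 0.0520) and 2.72 ± 0.72 in monocytes (adjusted p = 0.155), neither of which passed. The difference from monocytes for Ifrd1, a transcriptional coregulator, passed in all 13 alternatives run (-3.06 ± 0.46, adjusted p = 3.60e-07), with values from -3.77 to -2.55. Ifrd1 had 336 and 199 UMIs in acupuncture neutrophils and 414 and 111 in dysentery neutrophils.

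The granule and prostaglandin genes did not all diverge. For Ptgs2 the difference was 0.28 ± 0.43 from macrophages (adjusted p = 0.997) and -0.97 ± 0.45 from monocytes (adjusted p = 0.638). These values do not show that the change was alike. Cxcl1 (-1.40 and -0.48) and Il1b (0.25 and -0.88) did not pass either. The difference of Cd83 from macrophages was positive (2.15, adjusted p = 0.0307) and passed in 6 of 13 alternatives. Lcn2 differed by -1.58 ± 0.45 from macrophages (adjusted p = 0.0308) and by -2.92 ± 0.59 from monocytes (adjusted p = 0.000672), and Ifi27 by -2.29 ± 0.43 from macrophages (adjusted p = 4.79e-05), while its difference from monocytes (-0.60) did not pass. The Lcn2 difference from macrophages was 0.044 without dysentery replicate 2, -0.57 without acupuncture replicate 1 and -0.18 without likely doublets, and passed in none of these. Without acupuncture replicate 1, the Lcn2 difference from monocytes (-1.67) and the Ifi27 difference from macrophages (-2.11, adjusted p = 0.0993) did not pass either.

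**Figure D4:**
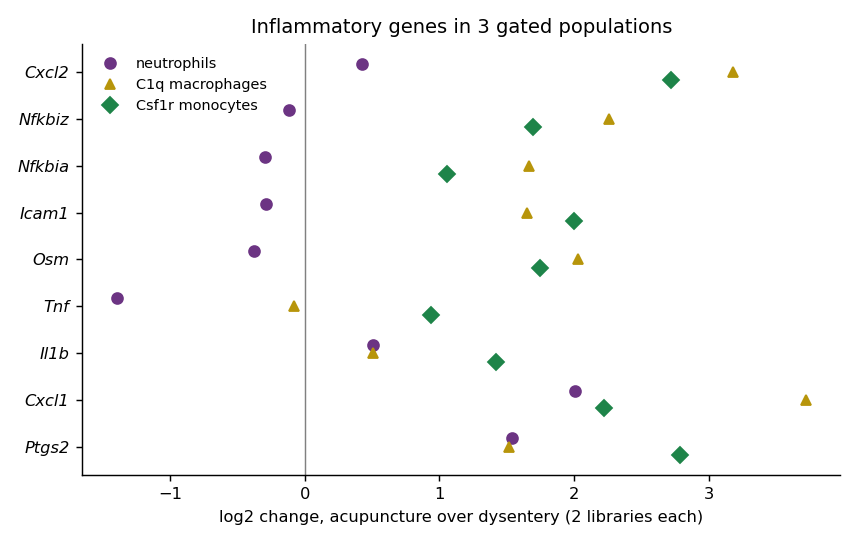
Log2 change of 9 inflammatory genes, acupuncture over dysentery (x axis), in neutrophils, C1q macrophages and Csf1r monocytes, each fitted apart on 2 libraries per group. Cxcl2, Nfkbiz, Nfkbia, Icam1 and Osm lie between -0.38 and 0.43 in neutrophils and above 1 in the other populations, whereas Cxcl1 and Ptgs2 lie above 1 in all 3.

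Promoters are shown for Cxcl2, Nfkbia and Nfkbiz, which diverged, and for Cxcl1 and Lcn2, which changed in neutrophils. NF-kB and C/EBP factors are the known regulators of neutrophil chemokine and granule genes. Icam1 and Osm also diverged but are not shown. Icam1 held no match to either motif, and no Osm promoter was examined. The sequences are from RefSeq, build GRCr8, from 250 bases before the start to 50 after it, on the gene's strand. Capitals mark a form of the NF-kB motif (GGG, then 2 bases of any kind, then TTTCC) or of the C/EBP motif (TTGCNNAA), on either strand; in these promoters the motifs do not overlap.
Cxcl1 (chr14:17479272-17479571, minus strand): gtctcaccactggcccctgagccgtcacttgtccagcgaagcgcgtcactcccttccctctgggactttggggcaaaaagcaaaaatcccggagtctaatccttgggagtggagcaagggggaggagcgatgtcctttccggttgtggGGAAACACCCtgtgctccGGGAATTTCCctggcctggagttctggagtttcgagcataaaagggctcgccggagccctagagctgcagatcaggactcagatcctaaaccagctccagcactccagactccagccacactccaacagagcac
Cxcl2 (chr14:17467206-17467505, minus strand): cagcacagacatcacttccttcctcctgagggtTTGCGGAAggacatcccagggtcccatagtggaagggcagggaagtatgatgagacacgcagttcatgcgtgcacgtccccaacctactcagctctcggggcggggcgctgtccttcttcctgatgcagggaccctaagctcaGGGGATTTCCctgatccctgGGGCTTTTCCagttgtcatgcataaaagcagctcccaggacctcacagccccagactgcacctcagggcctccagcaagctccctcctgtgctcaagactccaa
Nfkbia (chr6:78597023-78597322, minus strand): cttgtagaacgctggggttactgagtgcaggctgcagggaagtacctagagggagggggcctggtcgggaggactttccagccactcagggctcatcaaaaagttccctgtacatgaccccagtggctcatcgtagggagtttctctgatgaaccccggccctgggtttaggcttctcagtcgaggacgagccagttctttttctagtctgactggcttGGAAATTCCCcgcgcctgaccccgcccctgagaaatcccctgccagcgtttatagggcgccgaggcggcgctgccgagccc
Nfkbiz (chr11:58251471-58251770, plus strand): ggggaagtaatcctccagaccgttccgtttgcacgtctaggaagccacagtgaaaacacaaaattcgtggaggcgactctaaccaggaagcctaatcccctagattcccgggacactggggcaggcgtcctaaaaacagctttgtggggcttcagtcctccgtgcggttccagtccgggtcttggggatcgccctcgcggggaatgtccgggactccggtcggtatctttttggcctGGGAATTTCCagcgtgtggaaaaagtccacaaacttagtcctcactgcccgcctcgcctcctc
Lcn2 (chr3:36081731-36082030, minus strand): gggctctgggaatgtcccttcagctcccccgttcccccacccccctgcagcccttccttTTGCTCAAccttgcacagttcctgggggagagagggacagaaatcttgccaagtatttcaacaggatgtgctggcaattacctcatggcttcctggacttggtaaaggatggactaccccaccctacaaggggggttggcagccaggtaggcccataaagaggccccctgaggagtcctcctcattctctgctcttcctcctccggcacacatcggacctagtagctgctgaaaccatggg

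Cxcl1 and Cxcl2 each held 2 matches to the NF-kB letters and Nfkbia and Nfkbiz 1 each, and 1.53% of 33469 rat promoters of this length held any. Ngp held 2 matches to the C/EBP letters and Lcn2, Ptgs2 and Cxcl2 1 each, and 10.6% of promoters held any. Cxcl1, whose change passed in neutrophils, and Cxcl2, whose change did not, carried the same number of NF-kB matches. Icam1 and Camp held no match to either motif in this window. A match is a description of letters and not a bound site.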

How the data were processed

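Single-cell RNA was measured in 4 libraries. Reads were handled with Cell Ranger 6.0.1 and STAR, per the submitters' processing notes, which list mRatBN7.2 and, for no stated purpose, GRCh38.p13. Each deposited matrix holds UMI counts that are whole numbers, without normalization, and the deposited barcode and feature files hold other content, namely the names of cells and genes.

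Cells with at least 300 genes and at most 20% mitochondrial UMIs (13 genes) were kept. Doublets were left in; as an alternative, the highest Scrublet scores (scanpy 1.11.5) were removed at 0.8% per 1000 cells. UMI counts of the chosen cells were summed per library (986896 and 538814 in acupuncture, 974571 and 236982 in dysentery) and tested with the quasi-likelihood test of edgeR 4.0.16 (TMM, filterByExpr at 10, Benjamini-Hochberg adjustment over all genes, threshold 0.05). To compare populations, the model held library and the interaction of population with group. DESeq2 1.42.0, other gates, scalings and filters, and leaving out each library were alternatives. Shares were compared after thinning to 1000 UMIs by an exact permutation test; counting floors are 3 counts. Tests were checked on simulated data.

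Named genes were the called genes with a symbol whose groups do not overlap (10 each way), a set of maturity and activation genes, called members of 30 gene lists (490 genes, 32 without a row), and the 5 largest interaction differences each way. The members, the lists and the rule were chosen with earlier results of these data known. Of the gene rows, 7162 have an identifier only, and names are as the files give them. One gene of the maturity set is not reported here.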

Additional observations from a re-analysis of the deposited data

Results flagged for a closer look

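Results are listed here because the change between acupuncture and dysentery differed between neutrophils and another population by the test of the difference itself. Against C1q macrophages it did so for 148 genes. Of those described above, the neutrophil change minus the macrophage change was -2.56 for Cxcl2, -2.31 for Osm, -2.27 for Nfkbiz, -1.90 for Nfkbia, -1.72 for Icam1, -1.58 for Lcn2 and -2.29 for Ifi27. It was 2.81 for Retnlg, whose macrophage UMIs numbered 14 and 6 in acupuncture and 28 and 28 in dysentery. It was 2.15 for Cd83 and -1.83 for Tnfsf13, both mostly in neutrophils with Csf1r or Flt3. The Cd83 difference passed in 6 of 13 alternatives, and was 0.091 without likely doublets (adjusted p = 1.00), 1.08 without cells that had Csf1r or Flt3 and 10.6 without dysentery replicate 1. The differences of greatest size were those of Prdm1 (11.6), Siglec5 (11.5), Ccl17 (11.0), Tmem119 (6.65) and Serinc2 (4.54), and of Rasgrp3 (-10.7), Jchain (-5.82), AABR07060872.1 (-5.79), Hbb-b1 (-4.27) and Mt2A (-3.59). Most of these rest on few neutrophil UMIs. Prdm1 had 4 and 4 in acupuncture and none in dysentery, Siglec5 had 54 and 5 in acupuncture and none in dysentery, and Rasgrp3 had none in acupuncture and 17 and 0 in dysentery, so their fitted values are no bound on a fold. AABR07060872.1 had 8999 and 322 macrophage UMIs in acupuncture and 431 and 232 in dysentery, against 9 and 2 neutrophil UMIs in acupuncture and 128 and 8 in dysentery, and its difference ran from -6.33 to -0.37 over the alternatives. The end nearest 0 came without likely doublets, and without acupuncture replicate 1 it was -2.28 (adjusted p = 0.640). Hbb-b1, a hemoglobin gene, had 3931 and 18425 UMIs in the macrophages of the acupuncture libraries and 64 and 15 in those of the dysentery libraries. Mt2A, a metallothionein, had 8235 and 9641 macrophage UMIs in acupuncture and 358 and 176 in dysentery, against 25 and 23 neutrophil UMIs in acupuncture and 71 and 4 in dysentery.

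Between neutrophils and Csf1r monocytes the change differed for 104 genes. The difference was -2.92 for Lcn2, -2.59 for G0s2, -2.48 for Cxcl2, -2.29 for Osm, -2.25 for Tnf, -2.10 for Icam1 and -1.92 for Nfkbiz. Tnf, which is known to be made by both cell types, did not pass against macrophages (-1.52, adjusted p = 0.0505), but passed there in 9 of 13 alternatives. The greatest were Siglec5 (12.2), Tpm2 (5.76), Cma1 (4.52), Rarres1 (3.64) and Folr2 (2.65), and Il23a (-5.06), Pcsk1 (-3.95), Fbxo32 (-3.29), Ifrd1 (-3.06) and Fasn (-3.05). Cma1, a mast cell protease, had 2 and 114 neutrophil UMIs in acupuncture and 1 and 0 in dysentery, so it rests on acupuncture replicate 2. Il23a had 3 and 17 neutrophil UMIs in acupuncture and 21 and 43 in dysentery, beside 11 and 7 monocyte UMIs in acupuncture and 4 and 0 in dysentery. No explanation of these differences was tested.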

How the results depend on the processing

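The 19 genes called in neutrophils became 11 with DESeq2, 11 without likely doublets, 7 with each gene's highest cell left out and 0 without cells that had Csf1r or Flt3. They became 82 with no filter on low counts and 3 to 54 without one library, with 3 when dysentery replicate 1 was left out. With the replicate number as a block there were 56; same-numbered libraries did not deviate together (r = 0.02 across genes), so the numbers are not read as a pairing. The call held in 16 of 17 alternatives for Lcn2 and Ifi27, 15 for C4b, 14 for Ccl7, 13 for Cxcl1, 12 for Lmna, 11 for Ptgs2, 8 for Ccl2 and Camp and 7 for Igfbp6. None of the 19 genes changed sign in any of these settings, and the cause of the lost calls was not tested. The alternatives at 500 per 10000, without Csf1r or Flt3, without the highest cell and without the genes of the rule were chosen after seeing the data. Genes differing from macrophages numbered 234 with the rule at 500 per 10000 and 32 to 234 without one library. Genes differing from monocytes numbered 197 at 500 per 10000, 53 with a Csf3r or Cxcr2 UMI required, 170 without Csf1r or Flt3 cells and 23 to 249 without one library. The difference in the share of cells ran from -1.50 to 1.51 points without one library, and among cells with a Ptprc UMI it was 1.11 points (4.29% ± 2.84 in acupuncture and 3.18% ± 2.83 in dysentery, SD, n = 2 each, exact permutation p = 0.667). Uncalled genes turned sign: Nr4a1 to -0.13 at 25 per 10000, Csf3r to -0.000300, Mmp8 to -0.057 and Mmp9 to -0.082 at 500 per 10000, Ccl4 to -0.0148 without its highest cell. In the differences from macrophages, Hbb-b1 turned to 0.23 without doublets and Il1b to -0.019 at 500 per 10000. Without one library, log2 changes ran from -0.052 to 0.91 for Cxcr4, -2.57 to 2.05 for Ccl4, -0.85 to 0.22 for Icam1, -0.43 to 0.15 for Nfkbiz, -0.29 to 0.86 for Atf3, -0.16 to 0.33 for Mmp8, -0.40 to 0.53 for Mmp9, -0.21 to 0.52 for Csf3r, -0.0037 to 0.80 for Cxcr2, -1.05 to 0.80 for Cd14, -0.78 to 0.059 for Osm, -0.40 to 0.035 for G0s2 and -0.63 to 0.094 for Trem1. The differences from macrophages then ran from -0.35 to 0.53 for Ptgs2, -0.43 to 0.66 for Il1b and -4.98 to 0.044 for Lcn2, and those from monocytes from -4.36 to 10.8 for Rarres1, -2.63 to 0.92 for Cxcl1 and -2.01 to 0.092 for Il1b. With 2 libraries a group and 61 cells in the smallest sum, genes with few UMIs were not tested or rest on few cells.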
